A study of Bos taurus with 8 samples.

Results

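Glycolysis turns glucose into pyruvate, and lactate dehydrogenase turns pyruvate into lactate. Pyruvate dehydrogenase kinases (PDK) inhibit pyruvate dehydrogenase, the mitochondrial complex that turns pyruvate into acetyl-CoA. Hypoxia-inducible factor (HIF) switches many of these genes on when oxygen is short, and its alpha subunits are marked for breakdown by the EGLN oxygen-sensing hydroxylases and then bound by VHL. The ruminant placenta is known as a tissue with a high glucose use and a large lactate output. The 38 genes described here are enzymes of this route, HIF pathway parts and HIF target genes, chosen by name. All but HK2 had a probe under their symbol, and all 37 of those were tested, among 13197 genes tested in all.

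The transcripts were measured on 8 bovine arrays (Agilent, a single dye). There were 4 arrays labelled pregnant, described as taken after pregnancy, and 4 labelled non-pregnant, described as taken before pregnancy. All 8 are labelled female fetal cotyledon, which is the part of the placenta formed by the fetus, and the labels used here carry no age or breed. The organism is labelled as cattle, whereas the collection protocol speaks of gravid uteri of pregnant buffalo from a slaughterhouse. The labels do not state whether the 4 arrays of a group are separate animals; the p-values therefore cover the spread among these samples alone, which may be technical.

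The marker transcripts went against the group labels. The summed signal of 10 trophoblast markers, in multiples of the 75th percentile of the array, was 0.522 to 2.38 on the arrays labelled pregnant and 694 to 1070 on those labelled non-pregnant, with all 10 lower and CDX2 and PLAC1 well above background on no array labelled pregnant. For endometrial markers the sums were 96.8 to 223 on the arrays labelled pregnant and 1.48 to 3.63 on those labelled non-pregnant, with 6 of 7 tested markers higher and ESR1 and HOXD10 well above background on no array labelled non-pregnant. Erythroid markers summed to 0.623 to 2.86 on the arrays labelled pregnant and 337 to 604 on those labelled non-pregnant (7 of 7 tested lower; HBB, HBM and ALAS2, among others, well above background on no array labelled pregnant). Cell cycle markers summed to 0.161 to 0.362 on the arrays labelled pregnant and 18 to 23.4 on those labelled non-pregnant (6 of 6 tested lower; CDC6 and BUB1 likewise). Leukocyte markers summed to 46.4 to 106 on the arrays labelled pregnant and 63.7 to 90.7 on those labelled non-pregnant, with 6 higher and 1 lower of 8. The lower one, CSF1R, was the brightest on the arrays labelled non-pregnant, at a mean log2 of 5.99 against 4.06 on those labelled pregnant. The median log2 difference over the list was 4.54, with CD3E at 10.3 and BOLA-DRA at 8.48. PTPRC, also on the list, differed by 0.01 (SE 0.364) and did not pass the test described below. Neither the overlapping sums nor this median shows whether leukocyte content was alike, which was not tested. Muscle markers summed to 1.13 to 1.94 on the arrays labelled pregnant and 7.30 to 11.0 on those labelled non-pregnant. Of the 6, 3 were lower, against 32.9 percent of all genes, while ACTA1, TNNT3 and MYOG did not pass the test described below. The enolase ENO3, itself a glycolysis gene, was the brightest of them on the arrays labelled non-pregnant, at a mean log2 of 2.99. The next, MYH7, was at -1.58. The part of these cell types in the differences below was not tested, and in bulk tissue fewer cells of a type and less RNA per cell cannot be told apart. The groups are for this reason named by their labels throughout. Each group also filled its own row of the slide, so row and group cannot be told apart. Labelled pregnant array 4 stood apart: over all tested probes it correlated at 0.943 to 0.951 with the other 3 arrays of its group, which correlated at 0.977 to 0.989 with each other.

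Of the 37 genes, 21 were lower and 6 higher on the arrays labelled pregnant, and 10 did not pass the test (limma, Benjamini-Hochberg adjusted over all tested probes, threshold 0.05). In percent, 56.8 of the genes were lower and 16.2 higher, against 32.9 lower and 29.9 higher among all genes tested, where 62.8 percent were called in either direction. The difference, a log2 value of labelled pregnant minus labelled non-pregnant, had a median of -0.92 over the 37 genes and -0.03 over all genes. A change of at least 2-fold was reached by 18 of the lower and 2 of the higher genes, against 24.3 and 23.9 percent of all genes. The groups did not overlap for 26 of the 37 genes, or 70.3 percent, against 60.3 percent of all genes. The share of higher genes among those called depends on scaling: it was 22.2% here, 8.33% after centring each array on its median and 8.0% without scaling, with only 2 higher genes in each. Those scalings moved the median of all genes to -0.41 and -0.51.

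**Figure D1:**
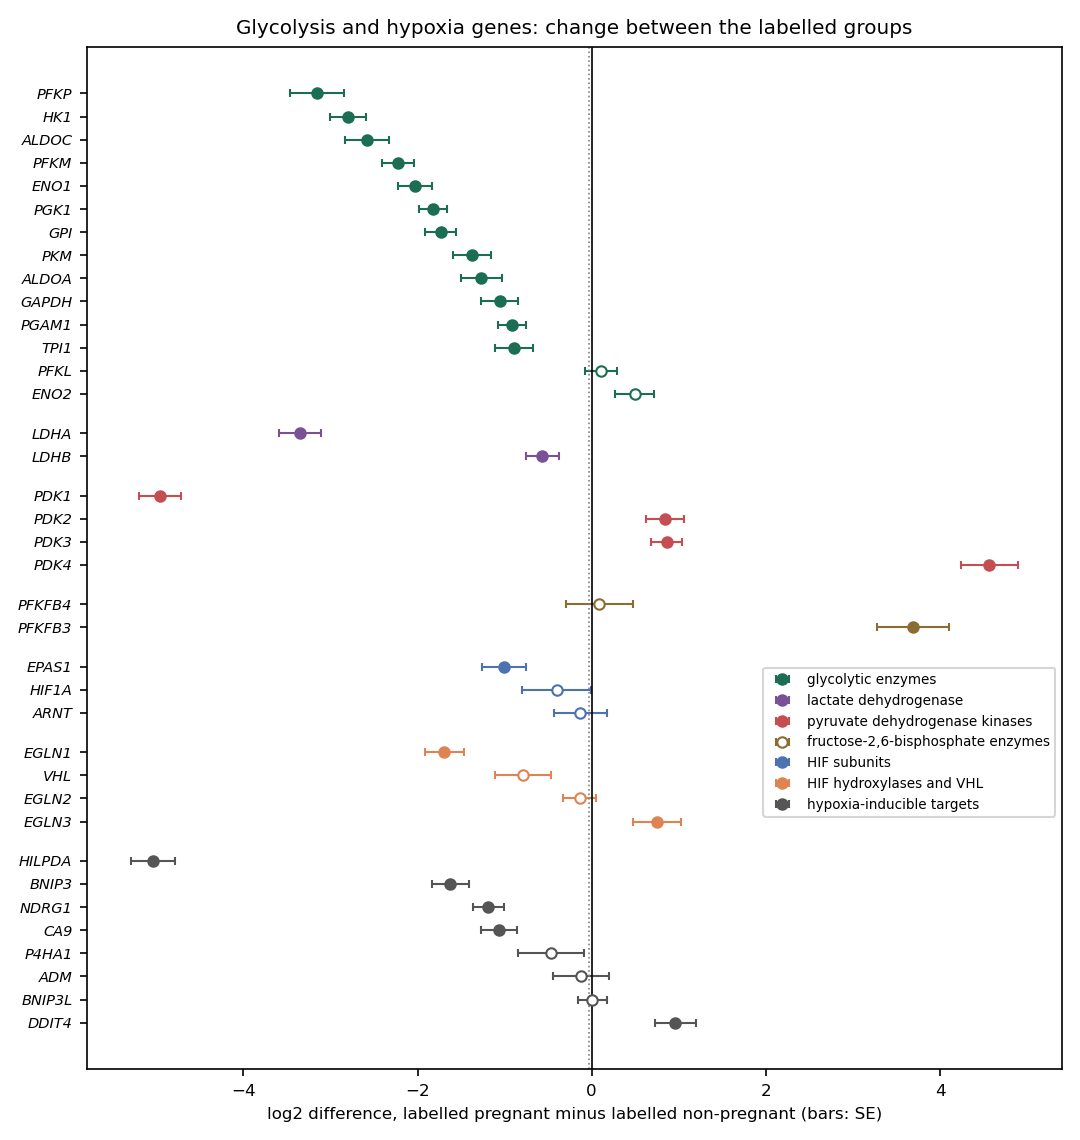
Log2 difference, labelled pregnant minus labelled non-pregnant, for the 37 genes, grouped by role, with the standard error (SE) as a bar (4 arrays per group). Filled points passed the test, and HILPDA is drawn at its fitted difference although its change is a bound. The dotted line is the median of all genes at -0.03. Of the 14 glycolytic enzymes, 12 lie left of 0 with filled points, against 32.9 percent of all genes called lower.

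Of the 14 glycolytic enzymes, 12 were lower, or 85.7 percent, against 32.9 percent of all genes. None was higher, against 29.9 percent of all genes, and the median was -1.55. Hexokinase HK1 opens the route by phosphorylating glucose, and its signal, given here and below as log2 relative to the 75th percentile of the array, was 3.80, 4.05, 4.04 and 4.32 on the arrays labelled pregnant and 7.19, 6.73, 6.95 and 6.52 on those labelled non-pregnant. All arrays labelled pregnant lay below all others, a difference of -2.80 (SE 0.209, adjusted p = 7.07e-06). HK2 had no probe under its symbol, but 2 probes described in the files as hexokinase 2 were lower by the fit, at -3.41 (SE 0.296, limma adjusted p = 1.70e-05) and -2.36 (SE 0.639, limma adjusted p = 0.0112); they are left out of the counts. GPI, which converts glucose 6-phosphate to fructose 6-phosphate, was at 3.48, 3.52, 3.58 and 3.72 on the arrays labelled pregnant and 5.54, 5.26, 5.41 and 5.04 on those labelled non-pregnant. The groups did not overlap, and the difference was -1.73 (SE 0.178, adjusted p = 4.51e-05). The other 2 GPI probes, dimmer ones, did not pass, at -0.96 (limma adjusted p = 0.127) and -1.03 (limma adjusted p = 0.0899).

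Phosphofructokinase, the committing step, has a platelet (PFKP), a muscle (PFKM) and a liver (PFKL) form, which did not move alike. PFKP was at 0.42, 0.84, 0.86 and 0.25 on the arrays labelled pregnant and 4.34, 3.64, 4.03 and 2.97 on those labelled non-pregnant. PFKM was at -1.50, -1.45, -1.52 and -1.83 on the arrays labelled pregnant and 0.85, 0.47, 0.47 and 0.79 on those labelled non-pregnant. For both forms every array labelled pregnant lay below every array labelled non-pregnant, with differences of -3.15 (SE 0.311, limma adjusted p = 3.59e-05) for PFKP and -2.22 (SE 0.183, limma adjusted p = 1.27e-05) for PFKM. PFKL was at 3.75, 3.86, 3.92 and 4.08 on the arrays labelled pregnant and 3.85, 3.49, 4.07 and 3.77 on those labelled non-pregnant. These ranges overlapped, and the difference of 0.11 (SE 0.187) did not pass the test. The other 2 PFKL probes, dimmer ones, did pass it, at 0.94 (SE 0.281) and 1.45 (SE 0.494).

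Downstream, both aldolases were lower. ALDOC was at 1.72, 2.12, 1.90 and 1.17 on the arrays labelled pregnant and 4.65, 4.14, 4.44 and 3.99 on those labelled non-pregnant, a difference of -2.58 (SE 0.256, adjusted p = 3.71e-05). ALDOA was at 5.25, 5.73, 5.72 and 6.03 on the arrays labelled pregnant and 7.24, 6.88, 7.12 and 6.56 on those labelled non-pregnant, a difference of -1.27 (SE 0.234, adjusted p = 0.00147). Neither aldolase overlapped between the groups. PGK1, which makes the first ATP of the route, was at 2.92, 3.19, 3.1 and 3.15 on the arrays labelled pregnant and 4.76, 4.86, 4.96 and 5.07 on those labelled non-pregnant, a tight separation of -1.82 (SE 0.166, adjusted p = 2.19e-05). TPI1, which interconverts the triose phosphates, differed by -0.89 (SE 0.216), GAPDH by -1.06 (SE 0.213) and the mutase PGAM1 by -0.92 (SE 0.161), all lower without overlap. The TPI1 and PGAM1 calls are lost with quantile normalization (-0.31, limma adjusted p = 0.206, and -0.36, limma adjusted p = 0.100), and the other 2 TPI1 probes did not pass (-0.53 and -0.43). GAPDH, often used as a constant reference transcript, was lower with all 8 of its probes; the files place the brightest on chromosome 1 and the others on chromosome 5, where they gave -1.93 to -1.43.

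The enolases parted. ENO1, the widespread form, was at 4.65, 5.14, 5.22 and 5.09 on the arrays labelled pregnant and 7.24, 6.98, 7.14 and 6.85 on those labelled non-pregnant, a difference of -2.03 (SE 0.194, adjusted p = 3.06e-05) with no overlap. ENO2, the form known from neurons, was at -0.57, -0.47, -0.38 and -0.79 on the arrays labelled pregnant and -1.31, -0.66, -1.43 and -0.78 on those labelled non-pregnant. Its groups overlapped and its 0.49 (SE 0.228, limma adjusted p = 0.0900) did not pass the test.

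Pyruvate kinase PKM closes the route and is made as an M1 or an M2 form by a choice between alternative exons. The array holds a probe described in the files as M1-type beside probes of the reference transcript, and a pair of them is shown. Probe letters here and below are those of the scanner files, 5′ to 3′ and in lower case, with positions on build Btau_3.1; the files do not say which exon or other annotated part a probe falls in.
PKM, M1-type probe, chr10:19409809-19412201, plus strand: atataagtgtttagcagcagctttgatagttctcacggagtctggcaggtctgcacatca
PKM, reference transcript probe, chr10:19412366-19413365, plus strand: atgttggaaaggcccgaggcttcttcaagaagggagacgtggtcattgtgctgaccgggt
The M1-type probe was well above background on none of the 8 arrays, so it gives no measure of the M1 form. The reference transcript probe was well above background on all 8 and differed by -1.29 (SE 0.295, adjusted p = 0.00482), and the brightest PKM probe by -1.37 (SE 0.217, adjusted p = 0.000608), both lower without overlap between the groups.

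Lactate dehydrogenase also split between its subunits. LDHA, the subunit known to favour lactate formation, was at 2.65, 2.66, 2.55 and 2.07 on the arrays labelled pregnant and 5.50, 5.51, 6.22 and 6.09 on those labelled non-pregnant. No array overlapped, the difference was -3.35 (SE 0.244, adjusted p = 6.26e-06), and the other 2 LDHA probes gave -3.34 and -3.89. LDHB, the heart-type subunit, was at 5.66, 5.64, 5.57 and 5.28 on the arrays labelled pregnant and 6.29, 5.96, 6.31 and 5.86 on those labelled non-pregnant. It did not overlap either, but its difference was only -0.57 (SE 0.189, adjusted p = 0.0282). The LDHB call is lost with quantile normalization (-0.08, limma adjusted p = 0.677), with the percentile taken over detected probes (-0.40, limma adjusted p = 0.0630) and without labelled pregnant array 2, 3 or 4 or labelled non-pregnant array 1 or 3 (-0.60 to -0.48). The probes of the 2 subunits shown here each cover a longer stretch of genome than their 60 bases, and differed by -3.89 for LDHA (SE 0.294) and -0.31 for LDHB (SE 0.182, not past the test).
LDHA probe, chr29:27564148-27564869, minus strand: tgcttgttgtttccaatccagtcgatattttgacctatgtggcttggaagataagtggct
LDHB probe, chr5:94982345-94983675, plus strand: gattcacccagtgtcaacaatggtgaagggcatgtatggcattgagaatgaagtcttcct

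The 4 pyruvate dehydrogenase kinases moved in opposite directions, PDK1 lower and PDK2, PDK3 and PDK4 higher, and none overlapped between the groups. Among all genes, 62.8 percent were called in either direction and 60.3 percent did not overlap. PDK1, a known HIF target, was at -2.63, -2.31, -2.48 and -2.07 on the arrays labelled pregnant and 2.49, 2.73, 2.09 and 3.02 on those labelled non-pregnant. This difference of -4.95 (SE 0.241, adjusted p = 7.94e-07) was on its brightest probe, while its other 2 probes, further toward the 3′ end of the gene, were lower by much less, at -0.64 (SE 0.161, limma adjusted p = 0.00781) and -0.84 (SE 0.241, limma adjusted p = 0.0144). With all 3 probes averaged the PDK1 difference was -2.15. The brightest probe ranks first only through the arrays labelled non-pregnant, where its mean was 2.58 against 0.35 and -0.93 for the other 2. On the arrays labelled pregnant it was the dimmest, at -2.37 against -0.29 and -1.78. PDK4, the kinase known to rise on fasting, was at 2.71, 2.04, 1.69 and 2.65 on the arrays labelled pregnant and -2.98, -2.14, -1.76 and -2.28 on those labelled non-pregnant. It was higher by 4.57 (SE 0.328, adjusted p = 5.74e-06), and the 5 of its 6 tested probes that were well above background in both groups were higher by 4.38 to 4.97. The sixth was well above background on all 4 arrays labelled pregnant and on none labelled non-pregnant, so no size is given for it.

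PDK2 was at 0.08, 0.25, 0.23 and 0.87 on the arrays labelled pregnant and -0.50, -0.70, -0.29 and -0.47 on those labelled non-pregnant, a difference of 0.84 (SE 0.218, adjusted p = 0.00888). PDK3 was at 3.07, 2.64, 2.66 and 2.81 on the arrays labelled pregnant and 1.79, 1.95, 1.94 and 2.06 on those labelled non-pregnant, a difference of 0.86 (SE 0.176, adjusted p = 0.00262). Both are modest beside PDK4 and lose their call with median or no scaling (PDK2 0.46 and 0.36, PDK3 0.47 and 0.38). Because kinase transcripts are related, the brightest PDK1 probe is shown beside a probe of PDK4, with the bases that match at their best ungapped alignment in capitals (31 of 43 overlapping bases).
PDK1 probe, chr2:24822675-24822734, minus strand: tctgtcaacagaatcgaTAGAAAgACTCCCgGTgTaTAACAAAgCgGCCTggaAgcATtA
PDK4 probe, chr4:13136603-13136627, minus strand: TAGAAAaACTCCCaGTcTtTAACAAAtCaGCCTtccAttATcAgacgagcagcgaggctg
The file places only the stated stretch of the PDK4 probe on the genome. That PDK4 probe was well above background on 1 array labelled pregnant and on no array labelled non-pregnant and was not tested.

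PFKFB3 and PFKFB4 make fructose 2,6-bisphosphate, the activator of phosphofructokinase. PFKFB3 was at 2.25, 2.12, 2.25 and 4.0 on the arrays labelled pregnant and -1.31, -0.74, -1.20 and -0.87 on those labelled non-pregnant. All arrays labelled pregnant were higher, by 3.69 on average (SE 0.414, adjusted p = 7.69e-05), and by 3.24 without labelled pregnant array 4, which lay far above the other 3. PFKFB4 was at -4.69, -5.49, -5.07 and -4.99 on the arrays labelled pregnant and -5.54, -5.96, -4.98 and -4.11 on those labelled non-pregnant, overlapping, and its 0.09 (SE 0.386) did not pass the test. Its other probe was lower, at -1.07, so the direction of PFKFB4 is not settled.

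**Figure D2:**
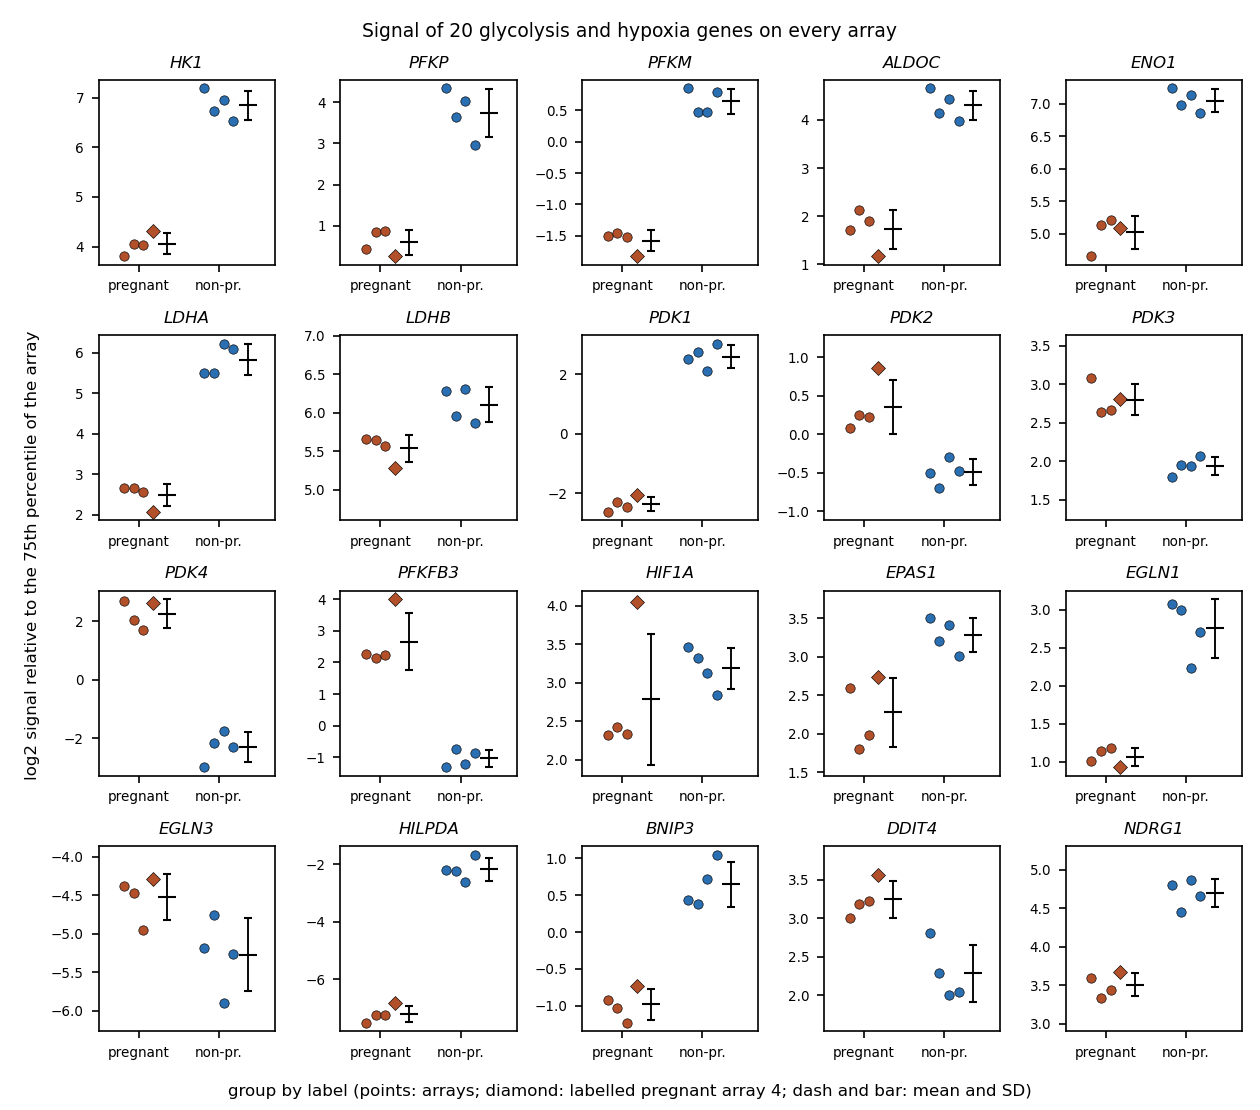
Log2 signal relative to the 75th percentile of the array, for 20 genes, with arrays labelled pregnant (orange, left) and labelled non-pregnant (blue, right), and the mean and SD beside them; the diamond is labelled pregnant array 4. The diamond lies far above its group for PFKFB3 (4.0) and HIF1A (4.05), and the groups of LDHA, PDK1 and PDK4 are wide apart.

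Of the HIF subunits, 1 of 3 passed the test. EPAS1 (HIF2 alpha, prominent in endothelium) was at 2.59, 1.81, 1.99 and 2.73 on the arrays labelled pregnant and 3.51, 3.21, 3.41 and 3.01 on those labelled non-pregnant. The groups did not overlap, and EPAS1 was lower by the fit, at -1.0 (SE 0.255, adjusted p = 0.00810). HIF1A was at 2.32, 2.43, 2.33 and 4.05 on the arrays labelled pregnant and 3.46, 3.33, 3.13 and 2.84 on those labelled non-pregnant. Arrays 1 to 3 labelled pregnant lay below all arrays labelled non-pregnant and array 4 above them all, so the difference of -0.40 (SE 0.395, limma adjusted p = 0.401) did not pass. Without array 4 it was -0.83 (limma adjusted p = 0.00783). ARNT, the partner of both, was near background and differed by -0.13 (SE 0.308), with 2 of 4 arrays labelled pregnant well above background and 4 of 4 labelled non-pregnant.

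Among the oxygen-sensing hydroxylases, EGLN1 was lower and EGLN3 higher. EGLN1, the main HIF hydroxylase, was at 1.01, 1.14, 1.19 and 0.93 on the arrays labelled pregnant and 3.08, 3.0, 2.23 and 2.71 on those labelled non-pregnant, a difference of -1.69 (SE 0.222, adjusted p = 0.000200) with no overlap. Its other probes disagreed with each other, one at -3.26 (SE 0.294) and one at 0.39 (SE 0.256, not past the test). EGLN3, itself a HIF target, was dim, at -4.38, -4.47, -4.96 and -4.29 on the arrays labelled pregnant and -5.18, -4.76, -5.91 and -5.26 on those labelled non-pregnant. Its groups overlapped, and the difference of 0.75 (SE 0.275, limma adjusted p = 0.0403) lost its call with median, quantile or no scaling (0.37, 0.28 and 0.27) and on leaving out any of labelled pregnant arrays 1, 2 and 4 or labelled non-pregnant arrays 1, 3 and 4 (0.54 to 0.78). EGLN2 was at 3.93, 4.17, 4.26 and 4.09 on the arrays labelled pregnant and 4.51, 4.24, 4.32 and 3.93 on those labelled non-pregnant, overlapping, and did not pass at -0.14 (SE 0.187), while another of its probes was higher at 0.73. VHL differed by -0.79 (SE 0.319, limma adjusted p = 0.0587); without labelled non-pregnant array 3, its lowest in that group, it was -1.08 (limma adjusted p = 0.00682).

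The last role group holds 8 further HIF target genes and leaves out those given above under other roles, such as PDK1 and EGLN3. Of these 8, 4 were lower, 1 was higher and 3 did not pass, so that 62.5 percent were called, against 62.8 percent of all genes. HILPDA, a lipid droplet protein induced by hypoxia, was at -7.52, -7.27, -7.25 and -6.82 on the arrays labelled pregnant, well above background on none of them, and at -2.21, -2.24, -2.61 and -1.66 on those labelled non-pregnant. It was at least 26.4-fold lower, a bound, since its dim signal lies under the detection limit. HILPDA met the detection filter through the arrays labelled non-pregnant alone. Its place among the 21 lower and the 26 non-overlapping genes is therefore no separate support. BNIP3, a mitophagy receptor, was at -0.93, -1.03, -1.23 and -0.73 on the arrays labelled pregnant and 0.43, 0.38, 0.72 and 1.05 on those labelled non-pregnant, a difference of -1.63 (SE 0.213, adjusted p = 0.000196) without overlap. Its relative BNIP3L was at 3.59, 3.75, 3.65 and 3.50 on the arrays labelled pregnant and 3.85, 3.55, 3.62 and 3.44 on those labelled non-pregnant, overlapping, at 0.01 (SE 0.171). CA9, a membrane carbonic anhydrase, differed by -1.06 (SE 0.204) and NDRG1 by -1.19 (SE 0.178), both lower. DDIT4, an mTOR inhibitor, ran the other way at 3.0, 3.19, 3.23 and 3.56 on the arrays labelled pregnant and 2.81, 2.29, 2.0 and 2.04 on those labelled non-pregnant, higher by 0.96 (SE 0.235, adjusted p = 0.00674), a call lost with median or no scaling (0.57 and 0.48). P4HA1, a collagen prolyl hydroxylase, at -0.47 (SE 0.379) and the vasodilator peptide gene ADM at -0.12 (SE 0.323) did not pass.

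Whether the members of a paralogue pair changed unequally was asked within each array, as the difference of their log2 values compared between the groups by a two-sided exact permutation test over 70 splits, adjusted over the 13 pairs that could be run. In 11 of 13 pairs the 2 members differed, each at the smallest p the design allows, 0.0286 (adjusted 0.0338, exact permutation). The share among pairs of genes in general was not computed, so this count is not shown to be particular to paralogues. Of all genes taken singly, 60.3 percent did not overlap between the groups. The shift was -9.52 for PDK1 minus PDK4, -5.81 for PDK1 minus PDK3 and -5.80 for PDK1 minus PDK2, and with all probes averaged, the undetected PDK4 probe included, -6.98, -3.03 and -2.99. It was -3.60 for PFKFB4 minus PFKFB3, -3.26 for PFKP minus PFKL, -2.78 for LDHA minus LDHB and -1.63 for BNIP3 minus BNIP3L. In the other direction it was 2.52 for ENO2 minus ENO1, 2.44 for EGLN3 minus EGLN1 and 1.55 for EGLN2 minus EGLN1. The shift of -1.31 for ALDOC minus ALDOA was not past the threshold with all probes averaged (-0.56, adjusted exact permutation p = 0.229). For PFKP minus PFKM (-0.93, adjusted exact permutation p = 0.0929) and EPAS1 minus HIF1A (-0.60, adjusted exact permutation p = 0.114) the test did not separate the 2 members, although the first passed with normexp background (-1.08) or without labelled non-pregnant array 4 (-1.24) and the second without labelled pregnant array 1 (-0.86).

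**Figure D3:**
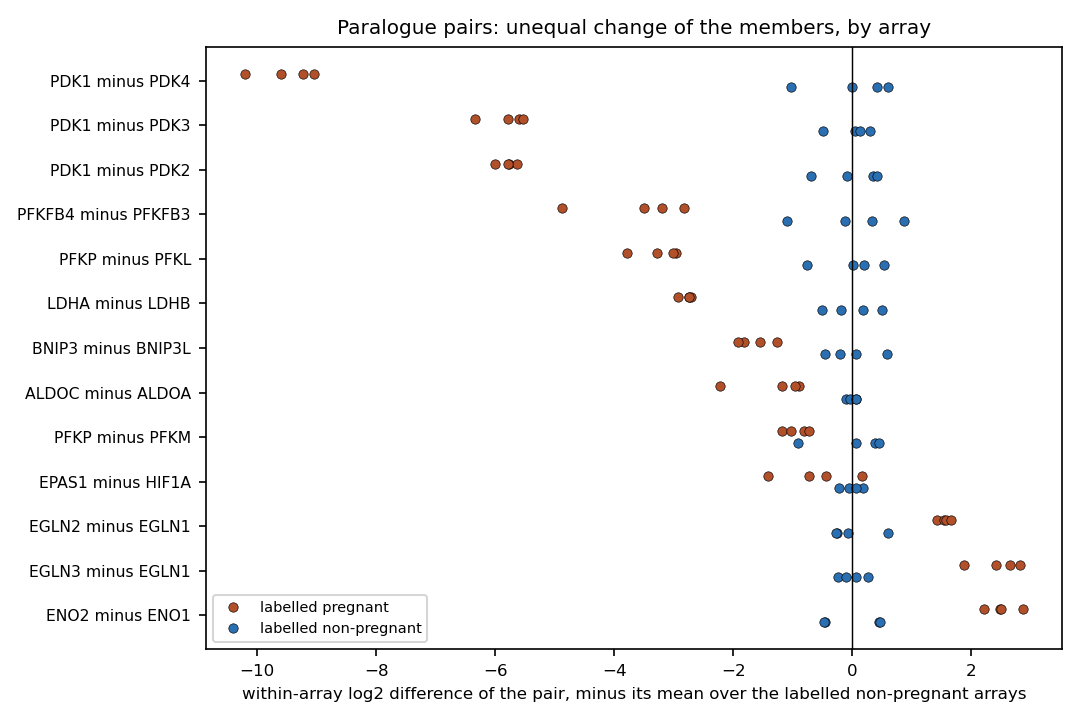
Within-array log2 difference of each paralogue pair, minus its mean over the arrays labelled non-pregnant, with one point per array (orange, labelled pregnant; blue, labelled non-pregnant). The orange points of PDK1 minus PDK4 lie around -9.52, while those of EPAS1 minus HIF1A overlap the blue.

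Several probes were tested for 28 of the 37 genes, 22 of them called. In 13 of the 22 every other tested probe was called the same way, and in 0 of the 22 was another probe called the opposite way. Of the genes not called, 3 had another probe called, namely PFKL, EGLN2 and PFKFB4.

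**Figure D4:**
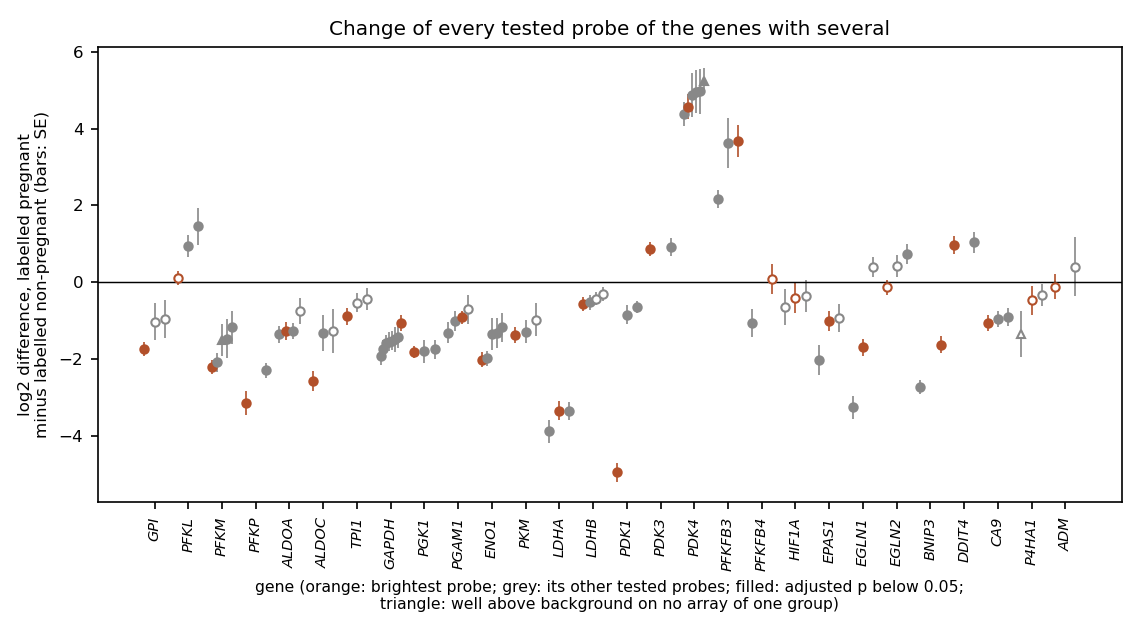
Log2 difference (labelled pregnant minus labelled non-pregnant, SE as a bar) of every tested probe for the genes with several, with the brightest in orange and the others in grey, filled where the adjusted p was below 0.05. The PDK1 probes spread from -4.95 to -0.64, whereas the 5 PDK4 probes measured in both groups lie between 4.38 and 4.97. Triangles mark probes well above background on no array of one group, drawn at their fitted difference, which is no measured size.

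The other genes of the route and of HIF control were read from a list of 58, of which 53 were tested. Of these, 26 were lower, 15 higher and 12 not called, with a median of -0.71, against 32.9 percent lower and 29.9 percent higher of all genes. TIGAR met the detection filter through the arrays labelled non-pregnant alone, so its place among the 26 is no separate support. The 3 largest falls were of TIGAR, BPGM and HKDC1. TIGAR was at least 127-fold lower and well above background on none of the arrays labelled pregnant. BPGM, which makes 2,3-bisphosphoglycerate in red cells, was at -6.65 (SE 0.209). The hexokinase-like HKDC1 was at -6.60 (SE 0.838), with 2 of 4 arrays labelled pregnant well above background. The erythroid and trophoblast marker sums given above moved with these genes, and their part was not tested. The 3 largest rises were of ARNT2, an ARNT relative, at 4.49 (SE 0.197), the muscle mutase PGAM2 at 2.48 (SE 0.416; 2 of 4 arrays labelled non-pregnant well above background) and the hexokinase HK3, known from leukocytes, at 2.32 (SE 0.310).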

How the data were processed

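RNA labelled as fetal cotyledon was hybridised to 8 Agilent arrays, labelled pregnant or non-pregnant (4 each). The authors deposited spot intensity values made with Agilent Feature Extraction 11.5.1.1, per the file headers, with background subtracted and no scaling between arrays. A deposited log2 table, whose scale and centring were read from its values, has a 75th percentile near 0 in each array (column medians -3.56, -3.61, -3.64 and -3.61 labelled pregnant, -4.21, -4.01, -4.0 and -3.77 labelled non-pregnant) and was used as an alternative. The direction and centring per probe of that table are not stated.

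Log2 of the processed intensity minus the 75th percentile of the array was used. The 1319 control spots per array and 119 spots with an outlier flag were left out, spots of a probe were averaged, and probes well above background (at least 0.5 of their spots) on at least 4 of 8 arrays, 34630 in all, were tested with limma 3.58.1 in R 4.3.3 (lmFit, eBayes). Probes well above background made up 60.6% to 66.0% on arrays labelled pregnant and 63.7% to 69.5% on those labelled non-pregnant; the number of arrays limits the precision. A gene is its brightest tested probe. Symbols came from the files and a cattle gene table (ARS-UCD2.0, names only): 28112 probes matched by accession, 1775 by another accession, 5520 by symbol, 149 by synonym, and 15726 kept the name in the file. A gene whose probe no array of one group detected gets a bound: the mean of the bright group against a mean over the dim group, taking on each array the probe's signal or the dimmest detected probe of that array, whichever was higher. Values per array are given for the 12 largest called differences, for genes against the majority direction and for members of paralogue pairs. Alternatives were normexp background (offset 50), quantile, median or no scaling, the percentile over detected probes, no or a strict filter, the deposited table, the mean of all probes, a replicate block and leaving out each array. The genes and lists were chosen with earlier results of these data known. Same-numbered arrays of the groups were not paired.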

Additional observations from a re-analysis of the deposited data

Results flagged for a closer look

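In 3 of 74 groups of 4 values, 1 array lay apart from the rest of its group by Dixon's criterion; chance flags about 1 in 20 groups. PFKFB3 was at 4.0 on labelled pregnant array 4, against 2.12 to 2.25 on the other 3. HIF1A was at 4.05 on the same array, against 2.32 to 2.43. VHL was at -4.75 on labelled non-pregnant array 3, against -3.68 to -3.55.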

How the results depend on the processing

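The count of 21 lower genes stayed between 19 and 23 under every alternative and between 20 and 21 on leaving out 1 array, and 6 higher became 2 with median scaling and 2 without scaling (otherwise 5 to 8). For the other pathway genes, 15 higher became 7 with median and 7 with no scaling and 9 to 14 on leaving out 1 array (9 without labelled pregnant array 2 and 9 without array 3). For all genes, 3942 higher became 2570 without scaling, and no filter gave 5394 higher, a share of 55.4% against 47.6%, with the all-gene median at 0.23. The median was 0.14 with the percentile over detected probes. With the replicate number as a block, 21 genes were lower and 6 higher, and 27 of the calls were shared with the unblocked fit; same-numbered arrays correlated at 0.0091, 0.0753, 0.0495 and 0.155 in their deviations, and not every array correlated best with its own number. Directions that turned, none of them called in the fit reported, were PFKL (-0.28 median, -0.38 no scaling), PFKFB4 (-0.49 mean of probes, -0.30 median, -0.40 no scaling, -0.38 quantile; -0.18 to 0.43 leaving out 1 array), ARNT (0.20 normexp, 0.03 detected percentile; -0.33 to 0.13), EGLN2 (0.34 mean of probes, 0.03 detected percentile, 0.40 quantile), BNIP3L (-0.38 median, -0.48 no scaling, -0.09 normexp; -0.05 to 0.09) and ADM (0.14 mean of probes, 0.05 detected percentile, 0.29 quantile; -0.28 to 0.07). Calls appeared for PFKL (0.83 mean of probes, 0.59 quantile), ENO2 (0.66 detected percentile), EGLN2 (0.40 quantile), BNIP3L (0.47 quantile), P4HA1 (-0.95 no scaling) and VHL (-1.18 median, -1.27 no scaling, -1.21 quantile). The cause of these changes was not tested. Detection limits the dim genes HILPDA, TIGAR, ARNT, VHL and PFKFB4, among others.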
